A study of Mus musculus with 384 samples.

Results

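Wild-type T cells from B16F10 tumours were compared by lineage: CD4 cells, which become helper or regulatory cells, against CD8 cells, which become killer cells. B16F10 is a transplantable mouse melanoma line, and the labels give the mice as C57BL/6, genotype wild type. The members were the single-cell wells of the wild-type CD4 plate and the wild-type CD8 plate in which at least 1000 genes reached 1 FPKM (a level of RNA corrected for gene length and library size). That left 74 of 94 CD4 wells and 72 of 94 CD8 wells. Each plate also held 1 population library made from many cells, used here as a second readout, and 1 well without a cell. The series holds the same pair of plates from Il27ra knockout mice, which lack the receptor chain for interleukin 27, with 78 kept CD4 cells and 77 kept CD8 cells, which complete the cells of the whole series. Those knockout plates share no sample with the wild-type plates and are shown beside them. RNA was read by Smart-seq2, a plate method that copies full-length transcripts of 1 cell per well.

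Conventional T cells carry 1 of 2 co-receptors. CD4 binds MHC class II and CD8 binds MHC class I, and the choice is fixed in the thymus by the factors ThPOK (Zbtb7b) on the CD4 side and Runx3 on the CD8 side. In tumours, CD8 cells can kill through granzymes and perforin, and long exposure to antigen is known to raise their inhibitory receptors such as PD-1. Tumour CD4 cells are a mixture of helper cells, known by CD40 ligand, and regulatory cells, known by Foxp3, which restrain other T cells.

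Each group was 1 plate, and all 4 plates carried 1 cell type and 1 genotype each, so plate and cell type cannot be told apart. The labels number the source but do not say how many mice it holds. No test between groups was possible, and every difference below is a description of these libraries. The sample titles name 2 plates as CD4, while the labels' treatment text speaks of CD8+ cells for all samples. The groups follow the titles. Kept CD4 cells had a median of 2047 detected genes (1006 to 4964) and kept CD8 cells 2530.5 (1004 to 5776), and the summed FPKM had medians of 721111 and 957169. The minimum left out 20 CD4 and 22 CD8 wells. The nearest wells had 918 genes outside and 1006 inside on the CD4 plate, and 941 and 1004 on the CD8 plate. The population libraries had 9918 and 10771 detected genes, and the wells without a cell had 26 and 11.

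The co-receptor genes followed the titles. Cd4 (chr6:124864692-124888221, minus strand, mm10) was detected, meaning at 1 FPKM or more, in 66 of 74 CD4 cells and in 0 of 72 CD8 cells, which allows a share of up to 4.99% (exact 95% binomial limit). Its level on the CD4 plate ran from 0 to 2089 FPKM with a median of 397 FPKM, and its highest value on the CD8 plate was 0.62 FPKM. Cd8a (chr6:71373427-71379173, plus strand) was detected in 61 of 72 CD8 cells, with a median of 466 FPKM and a highest value of 1598 FPKM. On the CD4 plate it was detected in 2 cells and did not pass 1.58 FPKM. Cd8b1, the gene of the CD8 beta chain, lies next to it (chr6:71322788-71337494, plus strand). It was detected in 64 CD8 cells and in 19 CD4 cells, of which 13 lay between 1.03 and 5.13 FPKM and 6 between 210.7 and 709 FPKM. The population libraries gave 777 and 0 FPKM for Cd4, 0.57 and 944 FPKM for Cd8a, and 5.34 and 2177 FPKM for Cd8b1, CD4 library first. The cells were sorted by these proteins, so these differences are a check of the titles.

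Cell by cell, 53 CD4 cells had Cd4 and neither Cd8 chain, 13 had Cd4 with Cd8a or Cd8b1, 6 had a Cd8 chain without Cd4, and 2 had none of the 3 genes. On the CD8 plate 68 cells had a Cd8 chain without Cd4 and 4 had none. At least 1 of the CD3 genes Cd3d, Cd3e and Cd3g, which define T cells, was detected in 72 of 74 CD4 cells and in 70 of 72 CD8 cells.

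Markers of other cell types were found in part of the cells of both plates. At least 2 melanoma markers (Tyr left out) were detected in 2 CD4 cells and 7 CD8 cells, at least 2 myeloid markers in 8 and 9, at least 2 natural killer markers (Eomes and Gzma left out) in 3 and 7, at least 2 B cell markers in 1 and 0, and at least 2 stromal markers in 1 and 1. Summed over the 14 myeloid genes, CD4 cells ran from 0 to 150507 FPKM and CD8 cells from 0 to 21347 FPKM, both with a median of 0. The melanoma genes other than Tyr summed to at most 2191 FPKM in CD4 cells and 13833 FPKM in CD8 cells. Tyr, the melanin enzyme, was itself at 1 FPKM or more in every kept cell of both plates, with medians of 7.12 and 8.72 FPKM, and at 0 FPKM in both wells without a cell. The natural killer gene Ncr1 was at 0 FPKM in both plates, as were the B cell genes Ms4a1 and Pax5 and the gamma-delta T cell factor Sox13. The wells with such markers or with the other lineage's co-receptor were 28 of 74 CD4 and 18 of 72 CD8, and results below were also computed without them. No CD8 cell had Cd4 detected, so all 18 CD8 wells (25% of the plate) had at least 2 markers of another cell type.

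Across the genome 7983 of the 23420 listed genes were detected in at least 10% of the kept cells of either plate and entered the comparison. The difference used throughout is the mean over CD4 cells minus the mean over CD8 cells of log2(FPKM + 1), so positive values are higher in CD4. The scale understates the difference of genes with low values. At least 2 log2 units separated the plates for 24 genes higher in CD4 (0.301% of the tested genes) and for 2.36% of the tested genes higher in CD8. At 1 log2 unit the shares were 1.58% in CD4 and 17.7% (1416 genes) in CD8. The median over all tested genes was itself -0.38, beside more detected genes per CD8 cell. This shift lies under every value given here. In 53 CD4 and 53 CD8 cells paired on their number of detected genes, the median was -0.02, and 47 genes (0.625% of 7526) were at least 2 log2 higher in CD4 against 53 (0.704%) in CD8. The split between the directions was thus uneven in all kept cells and near even in the paired cells. The paired CD8 cells were still somewhat higher, with medians of 2183 (CD4) and 2317 (CD8) detected genes and 743502 and 880642 summed FPKM. None of the genes past 2 log2, called CD4-high and CD8-high below, had the other sign in the paired cells. Of the 24 CD4-high genes, 21 were still 2 log2 apart in the paired cells. Of the CD8-high genes 26.6% were, and 88.8% were at least 1 log2 apart. Without the doubtful wells 22 CD4-high genes and 72.3% of the CD8-high genes stayed past 2 log2. By construction 50% of all tested genes lie above and 50% below their median of -0.38, the mark against which members of gene lists are counted.

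The population libraries gave 1471 of the same genes at least 1 log2 higher in CD4 (18.4%) and 1696 higher in CD8 (21.2%), with a median of -0.02. In such a library, fewer cells of a type and less RNA per cell cannot be told apart. All 24 CD4-high genes of the single cells were at least 1 log2 higher in the CD4 population library as well. Of the CD8-high genes, 94.7% had the same sign there and 64.4% were at least 1 log2 higher. The genes past both sizes were thus 24 in CD4 (0.301%) and 1.52% of the tested genes in CD8. Over all 7983 genes the differences of the 2 readouts had a Pearson r of 0.42 and a Spearman rho of 0.45, given across genes, which are not independent, and with both readouts taken from the same plates.

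**Figure D1:**
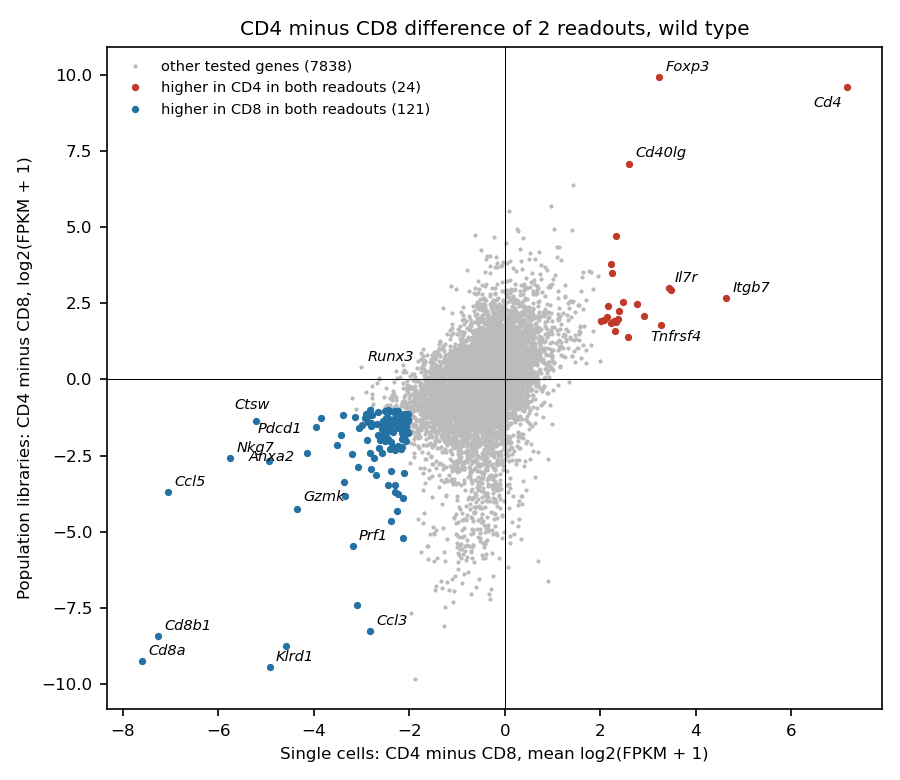
Each point is 1 of 7983 tested genes, with the CD4 minus CD8 difference over single cells on the x axis and between the population libraries on the y axis, both in log2(FPKM + 1). The 24 red genes (right) and the blue genes (left, 1.52% of those tested) pass 2 log2 in the cells and 1 log2 in the libraries, while Runx3 lies at -3.01 in cells and at 0.41 between the libraries.

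Beside the co-receptors, the widest genes of the CD8 plate were Ccl5, Nkg7 and Ctsw. Ccl5 (chr11:83525778-83530518), a chemokine that draws T cells, had a median of 5286 FPKM in CD8 cells, with values from 0 to 43847, and a median of 0 FPKM in CD4 cells, with values up to 20166. It was detected in 60 of 72 CD8 cells (83.3%, exact 95% interval 72.7 to 91.1, counting error only) and in 27 of 74 CD4 cells (36.5%, 25.6 to 48.5). The means were 3.68 ± 5.08 and 10.73 ± 5.01 (SD over cells, n = 74 and 72), a difference of -7.06. The population libraries had 1497 and 19305 FPKM, CD4 first. The 2 plates overlap for this gene: the CD4 cells with Ccl5 spread over much of the CD8 range, with a median of 773 FPKM among detecting cells against 7649 FPKM.

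Nkg7 (chr7:43437073-43438249), a granule membrane protein, differed by -5.75, and it was detected in 64 CD8 cells and 34 CD4 cells. Its median was 4140 FPKM in CD8 cells and 0 FPKM in CD4 cells. Ctsw (chr19:5465043-5468507), a cysteine protease of killer cells, differed by -5.22 and was found in 61 CD8 and 23 CD4 cells. In the cells that had it, the level was alike on both plates, at medians of 883 and 830 FPKM, so the plates differed in how many cells had the gene. Klrd1 (chr6:129591782-129598775), which encodes CD94, the shared partner of the NKG2 receptors, was detected in 45 CD8 cells and 4 CD4 cells, a difference of -4.93, and the population libraries listed it at 688 FPKM for CD8 and at 0 for CD4. Ly6c2, a surface antigen of activated and memory CD8 cells, differed by -4.95 with 47 CD8 and 15 CD4 cells. Anxa2, a membrane-binding annexin, differed by -4.13, and the paired cells narrowed this to -2.64. Ran, a GTPase of nuclear transport, differed by -3.44, and Sema4a, a semaphorin, by -3.40.

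On the CD4 side the widest gene after Cd4 was Itgb7 (chr15:102215995-102231944), the integrin beta 7 chain. It was detected in 54 of 74 CD4 cells (72.97%, 61.4 to 82.6) and in 20 of 72 CD8 cells (27.8%, 17.9 to 39.6), with medians of 558 and 0 FPKM and highest values of 3359 and 1023 FPKM. The means were 6.88 ± 4.39 and 2.24 ± 3.82, a difference of 4.64. Icos (chr1:60977927-61000320), a co-stimulatory receptor of the CD28 family, was detected in 56 CD4 and 34 CD8 cells and differed by 3.48. Il7r (chr15:9505788-9530176), the interleukin 7 receptor chain of long-lived T cells, differed by 3.44, with 45 CD4 and 15 CD8 cells. Its medians were 56.9 FPKM in CD4 cells and 0 FPKM in CD8 cells. Crem, a cyclic AMP responsive repressor, differed by 3.27, Junb, an AP-1 factor, by 2.58, Emb, the membrane protein embigin, by 2.36, and Tspan13, a tetraspanin, by 2.32. Ass1, the arginine-making enzyme, differed by 2.38 and the predicted genes Gm5424 and Gm12505 by 2.77 and 2.32. Ass1 and Gm5424 were also alike between the population libraries, at 2.25 and 2.48, and whether they share reads was not tested. The counting software divides reads between similar sequences, so values of genes with near copies, such as Klrc1 and Klrc2, the granzymes or the class I genes, are uncertain.

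**Figure D2:**
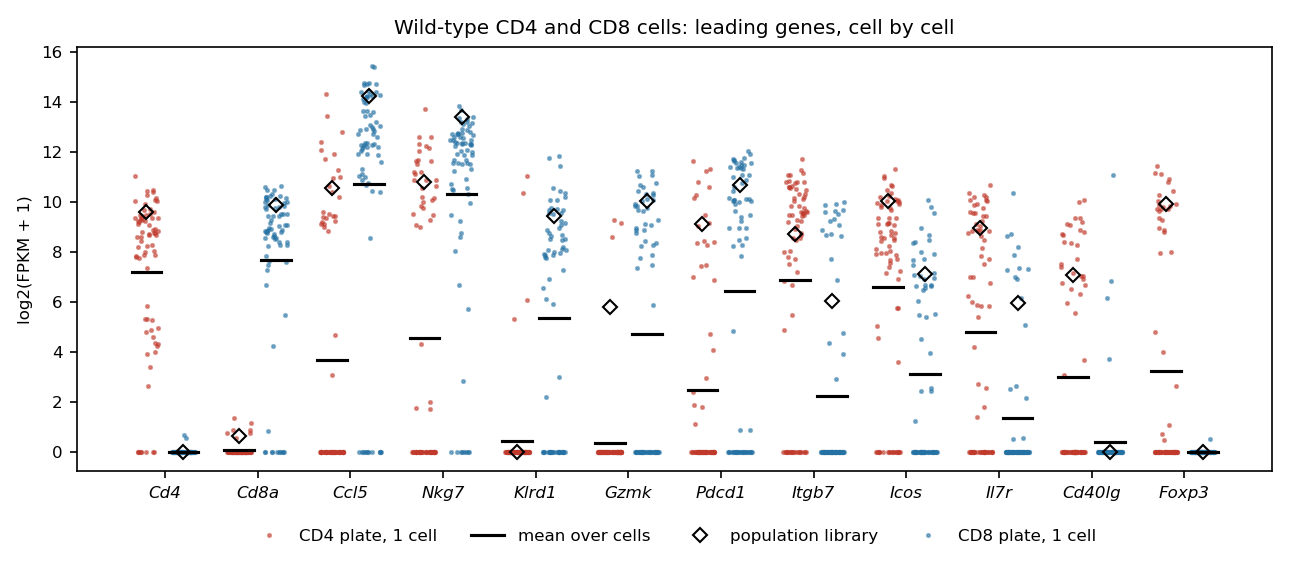
For 12 genes, each point is the log2(FPKM + 1) of 1 kept cell, red for the CD4 plate (74 cells) and blue for the CD8 plate (72 cells), with black bars at the mean over cells and open diamonds at the population library. Most genes split each plate into cells at 0 and cells with a high value, so a difference of means such as -4.93 for Klrd1 largely follows how many cells had the gene.

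Promoters are printed for 4 genes from both sides because short motifs of factors known in T cells were found in them: a T-box motif for Nkg7, a RUNX motif for Ly6c2, an AP-1 motif for Anxa2 and a kappaB motif for Nfkbia. Nfkbia, the inhibitor of NF-kappaB and itself an NF-kappaB target, was 2.32 higher in CD4 cells. Each line gives the 250 bases before the RefSeq start on the gene's strand (GRCm38.p6, the assembly also called mm10), 5′ to 3′, with the motif in capitals. The regions are chr7:43436888-43437137 (plus) for Nkg7, chr15:75111972-75112221 (minus) for Ly6c2, chr9:69453433-69453682 (plus) for Anxa2 and chr12:55492648-55492897 (minus) for Nfkbia.
Nkg7: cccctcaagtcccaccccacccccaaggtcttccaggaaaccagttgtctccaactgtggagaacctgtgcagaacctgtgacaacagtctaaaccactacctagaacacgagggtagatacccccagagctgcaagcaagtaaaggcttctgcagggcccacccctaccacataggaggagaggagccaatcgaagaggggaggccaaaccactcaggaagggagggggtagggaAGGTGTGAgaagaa
Ly6c2: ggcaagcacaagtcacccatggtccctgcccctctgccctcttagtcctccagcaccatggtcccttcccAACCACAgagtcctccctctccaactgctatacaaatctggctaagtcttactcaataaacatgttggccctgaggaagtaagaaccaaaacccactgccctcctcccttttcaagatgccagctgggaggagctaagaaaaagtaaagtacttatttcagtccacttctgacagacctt
Anxa2: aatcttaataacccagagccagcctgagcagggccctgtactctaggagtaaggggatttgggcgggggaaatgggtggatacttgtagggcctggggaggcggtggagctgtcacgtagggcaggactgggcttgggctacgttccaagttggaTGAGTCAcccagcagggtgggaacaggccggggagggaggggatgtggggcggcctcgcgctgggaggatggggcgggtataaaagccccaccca
Nfkbia: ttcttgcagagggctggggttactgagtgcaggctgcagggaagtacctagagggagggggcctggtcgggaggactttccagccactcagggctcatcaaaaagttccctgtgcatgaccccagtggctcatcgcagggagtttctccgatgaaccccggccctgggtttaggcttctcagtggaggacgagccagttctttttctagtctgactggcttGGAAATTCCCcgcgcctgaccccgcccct

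The motifs were searched on both strands in 300 bases at each RefSeq start, 250 before it and 50 after, as AGGTGTGA (T-box), TGTGGTT (RUNX), TGANTCA (AP-1), GGGAN followed directly by TTTCC (kappaB) and TGACGTCA (CRE). Of the genes past both sizes, 96 CD8-high and 17 CD4-high genes matched a promoter by symbol. The T-box motif was in 2 of 96 CD8-high genes (2.08%), against 1.48% of all genes with a promoter and 1.07% of the 6009 tested genes with one, and in 0 of 17 CD4-high genes. The RUNX motif was in 4 of 96 (4.17%) and 1 of 17, against 6.09% and 4.66%. The AP-1 motif was in 9 of 96 (9.38%) and 1 of 17, against 8.97% and 5.96%. The kappaB motif was in 0 of 96 and 1 of 17, against 0.466% and 0.549%, and the CRE motif in 2 of 96 and 0 of 17, against 2.03% and 3.81%. With so few matches the shares are descriptions, and a match is a description of the letters only.

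Cytotoxic granule genes lay mostly on the CD8 side. Of 19 listed genes 12 were tested, 9 lay below the median of all genes, and 6 were at least 2 log2 higher in CD8, against 2.36% of all tested genes. The list's median was -1.94 beside -0.38 for all genes, and -0.93 in the paired cells. Besides Nkg7 and Ctsw, Gzmk, a granzyme of memory-like CD8 cells, was detected in 36 CD8 and 3 CD4 cells and differed by -4.35. Cst7, which encodes cystatin F, an inhibitor of granule proteases, differed by -3.52. Prf1, the pore-forming perforin, was found in 29 CD8 and 3 CD4 cells and differed by -3.19, with population levels of 1945 and 43.4 FPKM, CD8 first. Gzmb, the main granzyme of effector killer cells, differed by -2.66, with 40 CD8 and 22 CD4 cells. In Gzmb the detecting CD4 cells were not low: their median was 2404 FPKM against 1771 FPKM in CD8 cells, and the log2 ratio of arithmetic means over all cells was 0.00. Srgn, the proteoglycan core of granules, which many blood cells make, was 0.66 and Lamp1, a lysosomal membrane protein, 0.91. The other 7 granzymes listed were not tested; Gzma was in 5 CD4 and 5 CD8 cells, with population levels of 0 and 217.5 FPKM.

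Joint detection of killer genes was counted cell by cell. All 3 of Ccl5, Nkg7 and Ctsw were detected in 55 of 72 CD8 cells (76.4%, 64.9 to 85.6) and in 11 of 74 CD4 cells (14.9%, 7.66 to 25.0), and none of them in 5 and 27 cells. At least 2 of Gzma, Gzmb, Gzmk and Prf1 were found in 38 CD8 cells (52.8%, 40.7 to 64.7) and 5 CD4 cells (6.76%, 2.23 to 15.1). At least 1 of them was found in 48 and 25 cells. Klrd1 together with Klrc1, the 2 chains of the inhibitory receptor CD94-NKG2A, was found in 27 CD8 cells (37.5%, 26.4 to 49.7) and 1 CD4 cell. The CD8 cells also had more detected genes, with medians of 2530.5 against 2047, and the part of this in these counts was not tested. Joint counts also follow how often each gene was detected alone, and whether the genes occurred together beyond that was not tested.

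Killer lectin-like receptors, some of which sense class I-like ligands, had 7 of 9 listed genes tested, with a median of -1.97. Of these, 3 genes were at least 2 log2 higher in CD8, against 2.36% of all genes. These were Klrd1, Klrc1 (-4.59, 38 CD8 cells and 1 CD4 cell) and Klrc2 (-2.31). Klrk1, the activating receptor NKG2D, differed by -1.97 and Klre1 by -1.35. The population libraries listed Klrc1, Klrc2, Klrk1 and Klre1 at 0 FPKM for CD4 and at 429, 11.9, 202.1 and 96.5 FPKM for CD8. Klrg1, a receptor of terminal effector cells, was the exception at 0.50, detected in 15 CD4 and 14 CD8 cells.

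Chemokines had 4 of 8 listed genes tested. Ccl4 and Ccl3, inflammatory chemokines of activated killer cells, differed by -3.35 and -2.82, with 32 and 25 CD8 cells against 9 and 4 CD4 cells. A few CD8 cells held very high levels, up to 49042 FPKM for Ccl4 and 45281 FPKM for Ccl3. The CD8 population library had 3311 and 3736 FPKM. Between the population libraries the 4 tested chemokines had a median difference of -4.13, with 0 above the median of all genes. Xcl1, which draws cross-presenting dendritic cells, was not tested, with 7 CD8 cells and 0 CD4 cells, and the population libraries had 260 and 0 FPKM.

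Co-inhibitory receptors were also mostly on the CD8 side. Of 13 tested genes 8 were at least 1 log2 higher in CD8, against 17.7% of all genes, and 3 passed 2 log2, against 2.36%. The list's median was -1.44, and -0.83 in the paired cells. Pdcd1, the gene of PD-1, was detected in 45 of 72 CD8 cells (62.5%, 50.3 to 73.6) and 25 of 74 CD4 cells (33.8%, 23.2 to 45.7) and differed by -3.95, with population levels of 1658 and 560 FPKM. Lag3, which binds MHC class II, differed by -3.84 with 46 and 14 cells, and Havcr2, the gene of TIM-3, by -2.55 with 33 and 11 cells. Entpd1 and Tigit differed by -1.89 and -1.80 and Cd160 by -1.77, with 18 CD8 cells and 1 CD4 cell. Ctla4, the inhibitory rival of CD28 and high in regulatory cells, had the other sign at 0.94, with population levels of 1843 FPKM in CD4 and 441 FPKM in CD8. Nt5e, the enzyme CD73, was 1.03. The population median of the list was -0.65, and Tigit was nearly level there at -0.08.

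Transcription factors of lineage choice did not all part to the same degree. Runx3, which silences Cd4 in CD8 cells, was detected in 53 CD8 and 19 CD4 cells and differed by -3.01, while the population libraries had 80.2 and 106.7 FPKM, CD8 first, a difference of 0.41. Zbtb7b, its counterpart on the CD4 side, was found in 17 CD4 and 6 CD8 cells and differed by 0.75, with population levels of 21.7 and 1.33 FPKM. Gata3, a factor of CD4 development and type 2 helper cells, was 1.96 and Maf, a driver of interleukin 10, 1.96. Among 20 tested factors of effector and dysfunctional cells, 2 were at least 2 log2 higher in CD8, against 2.36% of all genes. These were Ikzf3, the factor Aiolos (-2.50), and Tox, which sustains exhausted CD8 cells (-2.42). The list's median was -0.50, beside -0.38 for all genes, with 10 members above that mark and 10 below. Eomes, a T-box factor, was found in 23 CD8 cells and 1 CD4 cell (-1.75), and Tbx21, its relative T-bet, differed by only -0.65.

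Cell cycle genes were higher in CD8. All 24 listed proliferation genes were tested and all 24 lay below the median of all genes, and 6 passed 2 log2, against 2.36% of all genes. The largest was Mcm6, a subunit of the replicative helicase, at -2.88, then Stmn1, which takes microtubules apart, at -2.74, and Tuba1b, a tubulin, at -2.64. Ccnb1, the mitotic cyclin, was detected in 13 CD8 cells and 0 of 74 CD4 cells. Mki67, the proliferation antigen Ki-67, was in 21 CD8 and 10 CD4 cells, at -0.86, with nearly equal population levels of 43.8 and 40.7 FPKM. The list's median was -1.60, and in the cells paired on detected genes it was -0.53. There 19 of the 24 genes passed the detection filter, 18 below 0 and 1 above. In the population libraries the median was -2.06.

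Helper genes lay mostly on the CD4 side. Of 9 tested helper genes 6 were at least 1 log2 higher in CD4, against 1.58% of all genes, and the list's median was 1.76. Cd40lg (chrX:57212143-57224042), the helper signal to B cells and dendritic cells, was detected in 29 of 74 CD4 cells and 4 of 72 CD8 cells and differed by 2.61, with population levels of 134.1 and 0 FPKM. Rora was 1.76, and Ccr4, a skin-homing receptor, was found in 15 CD4 cells and 0 CD8 cells. Batf, an AP-1 factor needed by several effector lineages, went against the list at -1.97.

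Foxp3 (chrX:7573644-7595245) was detected in 27 of 74 CD4 cells (36.5%, 25.6 to 48.5) and in 0 of 72 CD8 cells, where its highest value was 0.43 FPKM, and it differed by 3.23. The population libraries had 967 and 0 FPKM. Of 22 tested regulatory genes 20 exceeded the all-gene median and 10 were at least 1 log2 higher in CD4, against 1.58% of all genes. The co-stimulatory receptors Tnfrsf4 (OX40, 2.92) and Tnfrsf18 (GITR, 2.29) followed Foxp3, with Ccr8 at 1.81 and Folr4, an older symbol of Izumo1r, at 1.46. Itgae was 1.40, Il2ra 1.15 and Ikzf2, the factor Helios, 1.13. Itgae, the CD103 partner of integrin beta 7, was in 12 CD4 cells and 0 CD8 cells. Entpd1, an ectoenzyme of regulatory cells and of exhausted CD8 cells, was -1.89.

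Of 17 tested co-stimulatory receptors and ligands, 7 were at least 1 log2 higher in CD4, against 1.58% of all genes, and 4 higher in CD8, against 17.7%. Tnfrsf25 (1.64) and Cd28 (1.57) stood with Icos, Tnfrsf4, Tnfrsf18 and Cd40lg, while Cd27 (-2.28), Slamf7 (-1.91), Cd48 (-1.66) and Cd226 (-1.13) were higher in CD8. Cd27 was again not different in this way in the population libraries, which had 820 FPKM in CD4 and 675 FPKM in CD8.

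Of 21 tested cytokine receptors, 1 (Il7r) was at least 2 log2 higher in CD4, against 0.301% of all genes, and 0 in CD8, against 2.36%. At 1 log2 there were 4 higher in CD4, against 1.58%, and 2 in CD8, against 17.7%. Il18r1 (1.57), Il2rg, the shared gamma chain (1.22), and Il2ra were higher in CD4, and both chains of the interleukin 10 receptor, Il10rb (-1.62) and Il10ra (-1.52), in CD8. Il27ra, the gene the study targets, was -0.73, detected in 27 CD4 and 37 CD8 cells, with 244.6 and 155.4 FPKM in the populations. Among cytokines, Ltb, lymphotoxin beta, was 1.66 and Ifng, interferon gamma, -1.34, with 20 CD8 and 4 CD4 cells. Of the naive and memory genes, S1pr1, the receptor for leaving tissue, was 1.53, and Bcl2, a survival gene, -1.44.

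Immediate early genes, which answer within minutes to stimulation or to handling of cells, were higher in CD4. Of 18 tested, 17 exceeded the all-gene median and 8 were at least 1 log2 higher in CD4, against 1.58% of all genes, and none was that much higher in CD8. Junb was detected in 69 CD4 and 54 CD8 cells, with medians of 1858 and 578 FPKM. Zfp36, which destabilizes cytokine messages, was 2.48, Nfkbiz 1.61, Fosl2 1.55, Dusp1 1.51 and Fos 1.25. Jund was the gene below the median, at -0.41.

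Trafficking genes pointed both ways. Cxcr6, a receptor of tissue-resident cells, differed by -3.07, with 44 CD8 and 24 CD4 cells, and Rgs16, a brake on chemokine receptors, by -3.36. Rgs1, of the same family, was 1.71. Itga4, which pairs with integrin beta 7, differed by -1.76, opposite to Itgb7.

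Of 15 tested genes of the T cell receptor complex, 5 were at least 1 log2 higher in CD8, against 17.7% of all genes, and 2 in CD4, against 1.58%. At 2 log2 there were 2 higher in CD8, against 2.36%. The CD3 genes Cd3d, Cd3g and Cd3e differed by -1.56, -1.34 and -1.28, while the population libraries put them at -0.39, -0.45 and -0.83. Zap70, the kinase recruited to the receptor, differed by -2.78 in cells and -0.22 between populations. Thy1, a surface marker of T cells, was -2.24 and -2.17, and Cd5, a damper of receptor signals, 1.38 and 2.06. Class I presentation genes had a median of -0.32 with H2-K1 at 1.27 and Psme1, a proteasome activator, at -1.87. Interferon-stimulated genes had a median of 0.17 and glycolysis genes -0.29. In the paired cells the medians of the receptor complex, class I and glycolysis lists had the other sign, at 0.18, 0.37 and 0.19, against -0.36, -0.32 and -0.29 in all kept cells. Housekeeping genes had a median of -0.48, near the -0.38 of all genes, and in the paired cells -0.08.

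**Figure D3:**
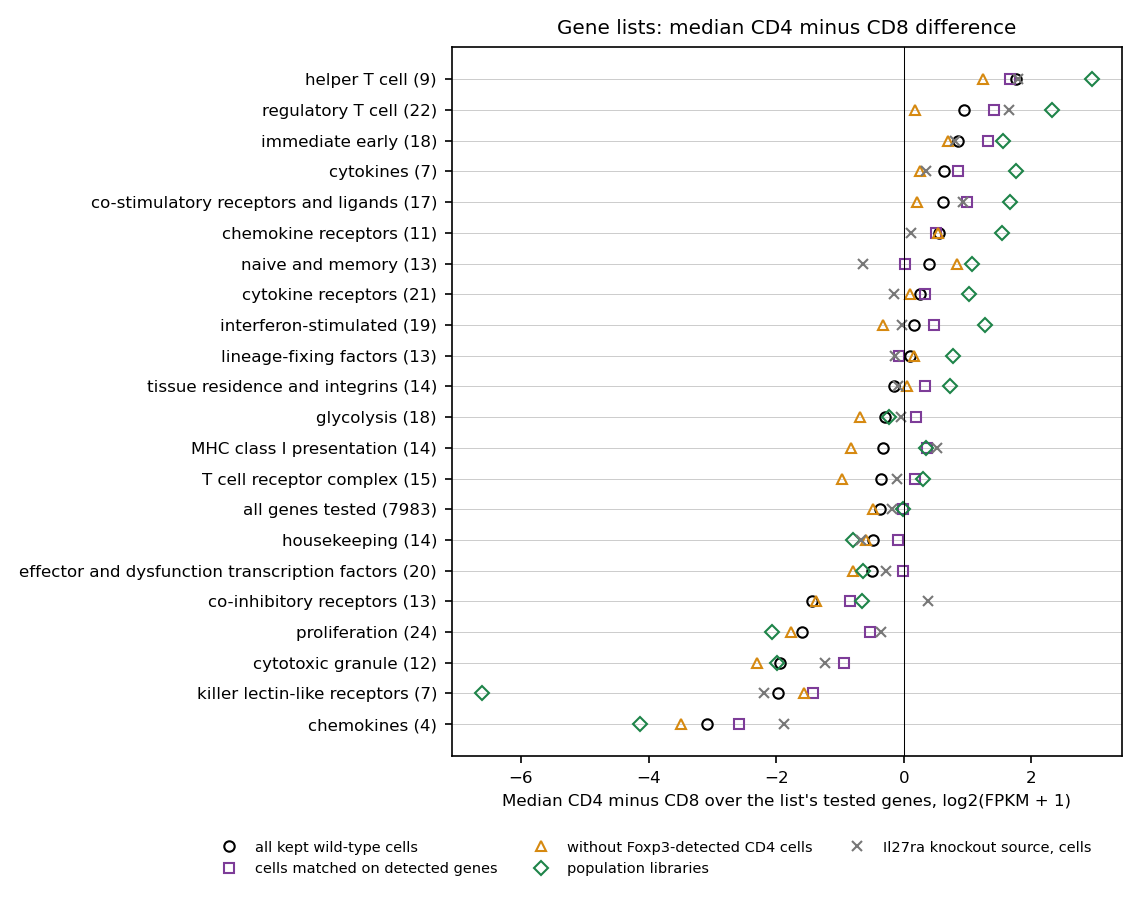
Each row is a gene list with its number of tested genes, and each symbol is the median CD4 minus CD8 difference in log2(FPKM + 1) over these genes: all kept cells (circles), cells paired on detected genes (squares), cells without Foxp3-detected CD4 cells (triangles), population libraries (diamonds) and knockout-source cells (crosses). The helper list lies right of 0 and the chemokine and killer receptor lists left of 0 in all 5, while the co-inhibitory list is at -1.44 in wild type and 0.38 in the knockout source.

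The CD4 plate was not uniform. CD4 cells were set apart by whether Foxp3 was detected, 27 cells with and 47 without, with medians of 2316 and 1966 detected genes. A cell in which Foxp3 was not detected may still express it, and both sets come from 1 plate. Ikzf2 was detected in 22 of 27 and 3 of 47 cells, Tnfrsf4 in 23 and 6, Il2ra in 19 and 1, Tnfrsf9 (the co-stimulator 4-1BB) in 19 and 3, Cd81 in 13 and 1, and Lrrc32, which displays latent TGF-beta, in 9 and 0. The difference of Tnfrsf4 from CD8 cells was 2.92 over all CD4 cells and 0.16 without the Foxp3-detected cells.

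Some genes of the CD8 side were detected more often in CD4 cells with Foxp3, and others more often in those without. Lag3 was detected in 11 of 27 cells with Foxp3 (40.7%, 22.4 to 61.2) and 3 of 47 without (6.38%, 1.34 to 17.5), beside 63.9% of CD8 cells. Havcr2 was in 10 and 1, Cst7 in 11 and 2, Entpd1 in 14 and 4, and Tox in 12 and 4. Klrg1, which at 0.50 over the whole plate was not on the CD8 side, was in 14 and 1. Gzmb was in 14 of 27 (51.9%, 31.9 to 71.3) and 8 of 47 (17.02%, 7.65 to 30.8), beside 55.6% of CD8 cells. Without the Foxp3-detected cells the differences from CD8 cells widened to -5.06 for Lag3, -4.80 for Cst7, -4.04 for Gzmb and -3.53 for Havcr2. Ran was in 19 of 27 and 13 of 47. Pdcd1 did not follow this split, with 10 of 27 and 15 of 47 cells. Other wide genes of the CD8 side went the other way: Ctsw was in 5 of 27 and 18 of 47, Ly6c2 in 2 and 13, Sema4a in 2 and 17, and Nkg7 in 9 and 25.

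Other genes sat in the cells without Foxp3. Cxcr6 was in 0 of 27 cells with Foxp3 (up to 12.8%) and 24 of 47 without (51.1%, 36.1 to 65.9), beside 61.1% of CD8 cells, so the 2 plates were closer for it outside the Foxp3-detected cells, at -1.29. Cd40lg was in 2 and 27 cells, S1pr1 in 6 and 33, Itgb1 in 6 and 33, and Tcf7, a factor of naive and stem-like cells, in 2 and 23. Tcf7 reached 2.03 above CD8 cells in this set, against 0.76 over the whole plate. Ccl5 (9 of 27 and 18 of 47), Icos (19 and 37) and Il7r (18 and 27) took similar shares of both sets. Of the 24 genes at least 2 log2 higher in CD4, 10 stayed past 2 log2 without the Foxp3-detected cells and 22 stayed past 1 log2. Foxp3 is itself among the 24 genes, and its loss follows from the split by construction. Of the CD8-high genes, 91.5% stayed past 2 log2.

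**Figure D4:**
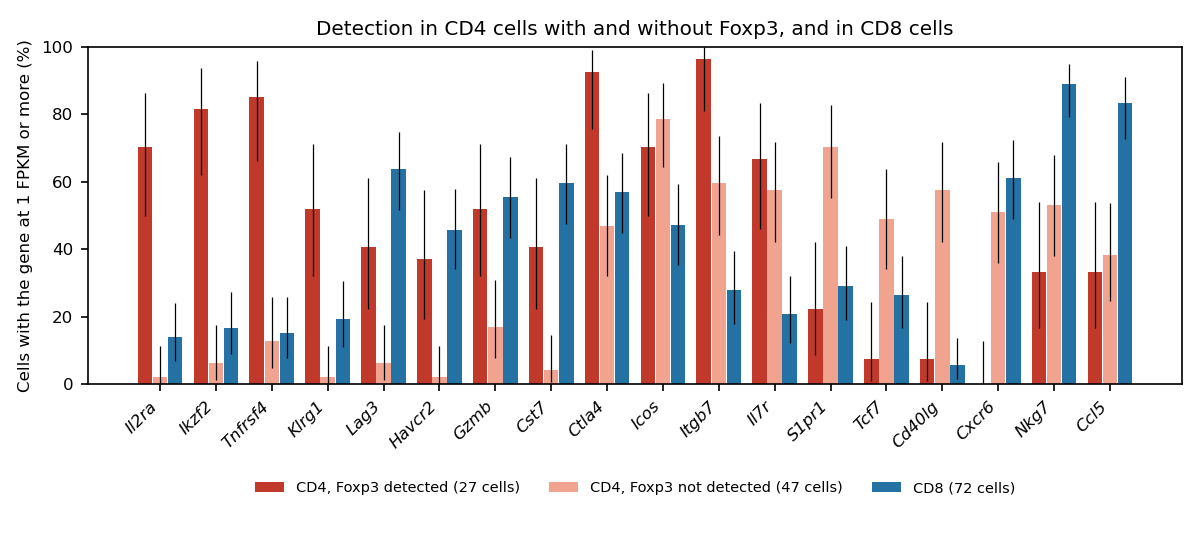
Bars give the share of cells with each gene at 1 FPKM or more in CD4 cells with Foxp3 (27, dark red), CD4 cells without it (47, light red) and CD8 cells (72, blue), and lines are exact 95% binomial intervals for counting error only. Lag3, Havcr2, Gzmb and Cst7 are higher in Foxp3-detected than in other CD4 cells, whereas Cd40lg, Tcf7, S1pr1 and Cxcr6 are the reverse.

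The single cells and the population libraries differed in sign for 10 of the CD8-high genes and for 0 of the 24 CD4-high genes. Runx3 and Cd27 were given above. The others named by rule were Lgals3bp, a secreted galectin ligand (-2.12 in cells and 0.48 between libraries), Serpina3g, a protease inhibitor of T cells (-2.11 and 0.33), and Trex1, a DNA-degrading enzyme (-2.07 and 0.26). All are small differences between the libraries, and with 1 library each no error can be given.

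The knockout source gives the same contrast in cells that share no sample with the wild type, though the receptor chain was missing there. Of the 24 CD4-high genes 18 had the same sign, against 33% of all genes above 0, and 16 were at least 1 log2 higher in CD4, against 2.34%. Of the CD8-high genes 90.4% had the same sign, against 66.9% of all genes below 0, and 49.5% were at least 1 log2 higher in CD8, against 8.71%. Over all genes the 2 sources had a Pearson r of 0.45 and a Spearman rho of 0.32.

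Genes at least 2 log2 apart the same way in both sources included the chemokine and granule genes Ccl5 (-7.06 in wild type and -6.98 in the knockout source), Nkg7 (-5.75 and -7.24) and Ctsw (-5.22 and -5.34), with Ly6c2 (-4.95 and -4.94), Klrd1 (-4.93 and -3.97) and Cst7 (-3.52 and -3.22). On the CD4 side they included Icos (3.48 and 3.87), Itgb7 (4.64 and 3.24), Foxp3 (3.23 and 4.38) and Tnfrsf4 (2.92 and 4.09).

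Other genes at least 2 log2 apart in the wild-type source were closer in the knockout source. They were chosen by their size in wild type, so a smaller difference elsewhere cannot be told apart from that choice. Lag3 was -3.84 and -0.01, Gzmk -4.35 and -0.81, Anxa2 -4.13 and -0.27, Pdcd1 -3.95 and -1.01, and Tox -2.42 and 0.71, with the other sign. Stmn1 was -2.74 and -0.16, and the proliferation list had medians of -1.60 and -0.36. On the CD4 side Il7r was 3.44 and -0.12, with 53 CD4 and 53 CD8 cells detecting it in the knockout source, Junb 2.58 and -0.02, and Emb, with the other sign, 2.36 and -1.03. Tcf7, which was not 2 log2 apart in wild type, was 0.76 there and -3.13 in the knockout source. With 1 pair of plates in each source, no difference between sources was tested.

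**Figure D5:**
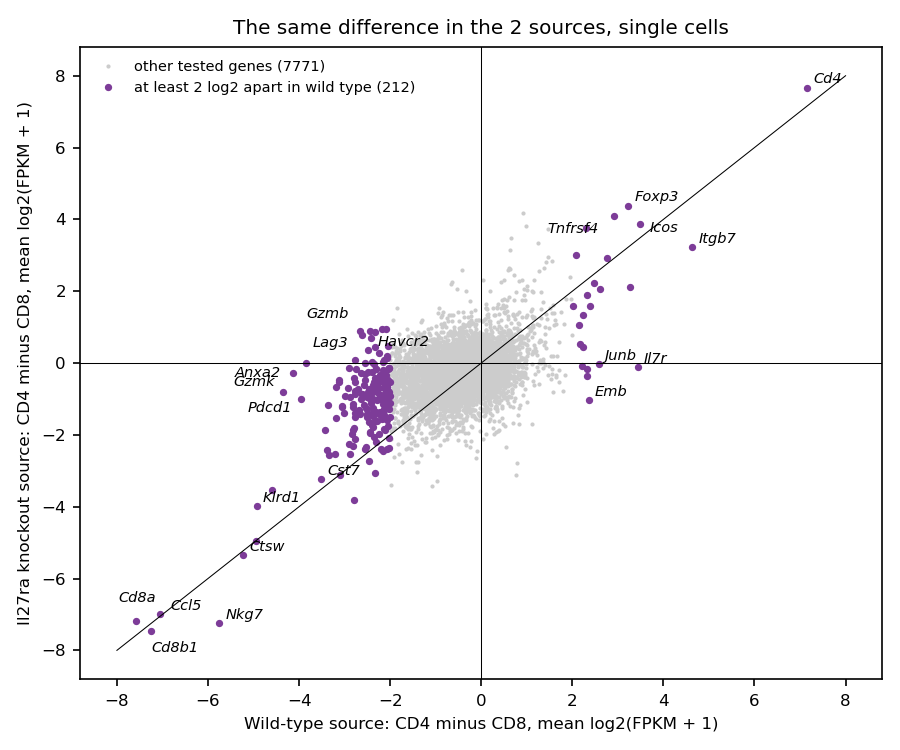
Each point is 1 of 7983 tested genes, with the single-cell CD4 minus CD8 difference in the wild-type source on the x axis and in the Il27ra knockout source on the y axis, both in log2(FPKM + 1), and the line marks equal values. Ccl5, Ctsw and Icos lie near the line, while Lag3, Anxa2, Il7r and Junb lie near 0 on the y axis.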

How the data were processed

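The authors deposited 1 table of gene-level FPKM values for 384 wells (94 single-cell wells on each of 4 plates, with a population and a no-cell well each). Per the submitters' processing notes Bowtie, RSEM and build mm10 were used, with versions not given in the sources used here; per the deposited table's name the FPKM were TMM-normalized between wells. The table holds no read counts, so depth is unknown. Detected genes and summed FPKM are given instead, though FPKM is already scaled by library size. Neither can separate depth from RNA content per cell.

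Cells were kept at 1000 genes of 1 FPKM or more, and genes at 10% of kept cells of either plate. Means of log2(FPKM + 1) were compared (pseudocount 1 FPKM). Intervals, where printed beside a share, are exact 95% binomial intervals (Clopper-Pearson), a measure of counting error alone. No test was made, since each group is 1 plate. The calculation was run on simulated cells with known shifts in level. Both simulated plates had the same detection shares, so differences in detection were not covered. Pairing of cells used a 10% limit on detected genes. Doublets were not called. Named genes were the co-receptors, the 15 widest in each direction past both readouts, up to 6 per list with any member at least 1 log2 against the sign of its list, and up to 5 of opposite sign in the populations; a few more list members are given where a split or repeat is described. The members, lists and motifs were chosen with earlier results of these data known. Positions are GENCODE M21 (7531 tested genes matched), promoters RefSeq. Of the listed genes 4 matched by an older symbol and 6 did not match. Python 3.11.15, numpy 2.4.6, pandas 2.3.3, scipy 1.17.1 and matplotlib 3.10.9 were used.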

Additional observations from a re-analysis of the deposited data

Results flagged for a closer look

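For 2 genes named above, the CD4 minus CD8 difference was below 0 in both readouts of the wild-type source and not below 0 in either readout of the knockout source. The difference between the sources was not tested. Gzmb was -2.66 over single cells and -1.81 between population libraries in wild type, and 0.89 and 1.96 in the Il27ra knockout source. Havcr2 was -2.55 and -1.83 in wild type, while in the knockout source the cells were level at 0.0032 and the libraries differed by 0.60.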

How the results depend on the processing

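No paired analysis was possible because each group is 1 plate and the well numbers name wells only. None of the CD4-high or CD8-high genes changed sign under any alternative run, but the shares of tested genes past 2 log2 moved. The CD4-high share of 0.301% became 0.651% at a pseudocount of 0.1 FPKM, 0.0877% at 10 FPKM, 0.489% after centring on the median of all genes, 0.625% in cells paired on detected genes, 1.88% by arithmetic means and 0.837% when cells were paired and rescaled to equal totals, an alternative chosen after seeing the data. The CD8-high share of 2.36% became 9.06%, 0.301%, 1.15%, 0.704%, 4.60% and 0.664% in the same order, 3.41% with cells of 2000 detected genes or more, 1.45% with 500 or more, and 4.03% without Foxp3-detected CD4 cells. Between the population libraries, the share at least 1 log2 higher in CD4 was 18.4%. It became 11.01% at a pseudocount of 10 FPKM and 23.3% with all genes at 1 FPKM or more (2702 genes against 1471). Rescaling the libraries to equal totals made it 27.8% and moved the median of all genes to 0.34. The share at least 1 log2 higher in the CD8 library, 21.2%, became 28.2% with all genes and 14.2% after rescaling. Low detection per cell limits what can be said of genes with low levels.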

Other observations

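Gene families outside the lists above, chosen by symbol after the leading genes had been seen, lay on the CD8 side. They are the machines of energy supply, protein breakdown, splicing and translation. Subunits of respiratory complex I (Nduf genes) had a median of -1.50 over 36 tested genes, 35 below the median of all genes and 10 at least 2 log2 higher in CD8, against 2.36% of all genes, among them Ndufa4 at -2.77. ATP synthase (Atp5 genes) had -1.84 over 16, all below the median of all genes, with Atp5g1 at -3.20. Cytochrome c oxidase (Cox genes) had -1.60 over 11, proteasome subunits (Psm genes) -1.28 over 38, and small nuclear ribonucleoproteins (Snrp genes) -1.74 over 11. Ribosomal protein genes had -0.80 over 76, with 60 below the median of all genes. In cells paired on detected genes these medians were -0.53, -0.63, -0.62, -0.52, -0.72 and -0.63 in the same order, beside -0.02 for all genes. The population libraries had -1.08, -0.87, -1.29, -0.92, -1.17 and -1.001, and the knockout source -0.63, -1.02, -1.63, -0.51, -0.87 and -1.39.

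Among the 24 CD4-high genes were also Hif1a, the oxygen-sensing factor (2.08), Odc1, the first enzyme of polyamine synthesis (2.15), Dgat1, which makes triglyceride (2.01), Ramp3, a receptor partner (2.23), and Sepp1, a selenium carrier (2.24). Hif1a was 2.998 in the knockout source and Odc1 1.05, while Sepp1 was 0.44 there.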
